A study of Homo sapiens with 72 samples.

Results

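Broad H3K4me3 domains of REH cells are stretches of 5000 bp or more over which trimethylation of lysine 4 on histone H3 was called without a break once the peaks of the 3 untreated REH libraries were merged. H3K4me3 peaks that overlapped by at least 1 bp were merged, which gave 11807 regions on chromosomes 1 to 22 and X. A peak was present in all 3 libraries in 7483 of them, and 432 of these (5.77%) were 5000 bp or wider and form the set described here. The domains were chosen by the width of the merged H3K4me3 region in untreated REH, so their width and signal in those libraries are given as a description only.

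The study profiled histone marks by Cut&Tag, in which an antibody guides a transposase to the marked nucleosomes and the tagged DNA is sequenced. The B lineage cell lines used were 3, each established from a patient's malignant cells and each a single line: REH and NALM6 from B cell acute lymphoblastic leukemia, and Raji from Burkitt lymphoma, a more mature B cell tumor that carries Epstein-Barr virus. Each line was left untreated or was treated with 1 nM bryostatin, an activator of protein kinase C, overnight by the labels (for a full day by the study's supplement), and 3 libraries were made per line, treatment and mark. Libraries of H3K4me3 in all the lines, of the related mark H3K4me2 in REH and Raji, and of the repressive mark H3K27me3 in REH bear on the results below. The labels do not state that the 3 libraries of a group came from separate cultures, so the p-values measure only the spread between these libraries.

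H3K4me3 marks the starts of active genes, and at most genes it is confined to a short stretch around the start. At a minority of genes the mark spreads over the start and far into the gene, and in many cell types such broad domains have been found at the genes that define the cell's identity. In precursor B cells these genes include the transcription factors PAX5, EBF1 and IKZF1 and the genes of immunoglobulin rearrangement and of the pre-B cell receptor.

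The sequences around 5 of these starts are printed to show the 2 kinds of promoter that the domains hold, rich or poor in CG dinucleotides. They were chosen after their values were seen, and they come from the RefSeq promoter table for GRCh38.p14, from 250 bp before to 50 bp after the start, read along the strand of the gene with each CG in capitals. PAX5 lies at chr9:37034219-37034518 on the minus strand with 30 CG, and IKZF1 at chr7:50304466-50304765 on the plus strand with 35. EBF1 lies at chr5:159097907-159098206 on the minus strand with 8 CG. DNTT lies at chr10:96304184-96304483 on the plus strand with 3 CG and IGLL1 at chr22:23580241-23580540 on the minus strand with 2.
PAX5: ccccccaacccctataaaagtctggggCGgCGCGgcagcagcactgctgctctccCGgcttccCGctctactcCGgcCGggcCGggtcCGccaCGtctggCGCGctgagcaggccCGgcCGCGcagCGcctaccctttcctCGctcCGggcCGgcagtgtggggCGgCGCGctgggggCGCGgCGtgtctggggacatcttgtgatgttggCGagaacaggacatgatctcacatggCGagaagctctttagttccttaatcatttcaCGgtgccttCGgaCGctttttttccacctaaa
IKZF1: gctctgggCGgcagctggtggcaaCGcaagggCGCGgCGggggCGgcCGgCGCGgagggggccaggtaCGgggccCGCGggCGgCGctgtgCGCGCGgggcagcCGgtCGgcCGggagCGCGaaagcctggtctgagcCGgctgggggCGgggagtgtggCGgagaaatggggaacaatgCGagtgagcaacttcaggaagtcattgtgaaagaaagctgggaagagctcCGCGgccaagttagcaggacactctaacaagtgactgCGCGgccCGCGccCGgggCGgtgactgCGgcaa
EBF1: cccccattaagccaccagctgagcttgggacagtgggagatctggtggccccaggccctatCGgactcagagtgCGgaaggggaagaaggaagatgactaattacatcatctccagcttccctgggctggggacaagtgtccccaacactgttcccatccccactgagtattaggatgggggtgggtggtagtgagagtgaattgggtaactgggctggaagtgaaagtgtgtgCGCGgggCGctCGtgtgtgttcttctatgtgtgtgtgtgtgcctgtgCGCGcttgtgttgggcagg
DNTT: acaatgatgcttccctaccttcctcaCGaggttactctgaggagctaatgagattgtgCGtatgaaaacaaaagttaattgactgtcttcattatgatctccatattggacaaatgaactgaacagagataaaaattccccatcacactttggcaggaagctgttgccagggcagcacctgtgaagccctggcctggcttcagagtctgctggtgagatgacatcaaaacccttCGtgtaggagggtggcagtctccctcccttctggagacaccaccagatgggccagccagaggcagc
IGLL1: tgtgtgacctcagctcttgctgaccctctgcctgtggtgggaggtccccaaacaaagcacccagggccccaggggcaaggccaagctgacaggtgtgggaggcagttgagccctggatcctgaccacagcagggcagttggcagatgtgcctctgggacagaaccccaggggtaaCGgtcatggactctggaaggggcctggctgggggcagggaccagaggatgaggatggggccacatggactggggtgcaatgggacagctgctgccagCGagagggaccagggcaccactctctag

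Of the 526 protein-coding genes with a start in a domain, 444 matched a promoter in the table by symbol, and 524 promoters in all, those of noncoding genes included, lay inside a domain. These held a median of 27 CG against 14 over all 27195 promoters of the table used, and 6.30% of them held 5 CG or fewer against 34.3% of all. Here and for the motifs below, the table's promoters were taken whether or not they carried H3K4me3 in REH. Promoters in the narrower H3K4me3 regions were not counted apart, so these shares do not set the domains against other marked promoters. Among the CG-poor promoters inside domains were those of IL7R and RAG2 with 0 CG, BLNK with 1, IGLL1 and LTB with 2, DNTT with 3 and CD79A with 4, genes of lymphoid cells that were picked after their values were seen. Others of the 33, such as TBC1D5 with 1 CG, ATP8B2 with 2 and ARHGEF2 with 3, are not genes known for lymphoid cells. The letters TGTGGT, bound by RUNX factors, stood in 8.40% of the promoters in domains and 13.1% of all. The letters CAGGTG, an E box, stood in 14.9% and 20.6%, CCCNNGGG, bound by EBF factors, in 22.9% and 18.6%, and CCGGAAG, bound by ETS factors, in 10.1% and 10.7%. Both strands were searched for each motif, and no overlap between them was removed. The median share of G and C bases was 66.3% in the promoters in domains and 58.3% in all. Its part in the motif shares was not tested.

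The domains were from 5000 to 27000 bp wide with a median of 5835 bp and quartiles of 5340 and 6988 bp, against a median of 2740 bp for the narrower regions called in all 3 libraries. They held 12.5% of the bases of all regions called in the 3 libraries, and 31 of them were 10000 bp or wider. The call depended on the library. Peaks touching the domain covered 5000 bp or more in 385 domains in replicate 1, in 266 in replicate 2 and in 108 in replicate 3, with 103 domains at that length in every library and 26 in none. Depth moved in the same order, with 27.9, 18.8 and 10.2 M mapped reads, and its part in the called length was not tested. Just inside the threshold lay the domains of NFIC, ZC3H4 and FOSL2 at 5000 bp, and just outside it MASTL, NOA1 and SERINC5 at 4980 bp.

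A protein-coding gene started inside 397 of the 432 domains (91.9%), a noncoding gene alone inside 26, and 6 lay within a gene body and 3 outside any gene. The narrower regions held a protein-coding start at a like share of 95%. The start of a long noncoding RNA was inside 44.2% of the domains and 28.4% of the narrower regions. This share rose with each width class, and a wider region has more bases in which a start can fall. Where a single protein-coding gene started in a domain, the mark reached a median of 2076 bp upstream and 3952 bp downstream of its start over 266 domains. The downstream side was the longer in 79.7% of them. In 5004 narrower regions with a single such gene the medians were 993 and 1626.5 bp. There the downstream side was the longer in 85.8%, so a longer downstream side is not particular to the domains. The 3 untreated H3K4me2 libraries all had a peak in every domain, and a median of 98.5% of each domain's bases was covered by H3K4me2. The narrower regions were much alike, with H3K4me2 in all 3 libraries in 96.7% and a median of 95.9% of bases covered. Domains held a median of 4.40 CG per 100 bp against 5.24 in the narrower regions. The highest RPKM in the peaks of a region had a median of 2646 in domains and 1977 in narrower regions.

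The gene lists below were chosen with earlier results of these data known, and their counts are a description. The 526 protein-coding genes with a start in a domain are 2.63% of the 19970 annotated ones and 6.24% of the 8423 with a start in any region called in all 3 libraries. Of 40 B lineage transcription factors listed, 20 started in a domain and 31 in any such region. The corresponding counts were 10 and 22 of 30 precursor B cell genes, 11 and 31 of 45 immediate early and feedback genes, and 15 and 51 of 54 chromatin regulators. Only CIITA, the activator of MHC class II genes, stood among the 22 genes listed for mature and germinal centre B cells, where BCL6 is counted with the transcription factors instead, and RPS2 among 26 ribosomal protein genes. Of the marker genes of other cells, 1 of 12 T cell genes (BCL11B) and none of 12 myeloid and erythroid or 16 nonblood genes had a start in a domain. Of 8 B lineage markers, 6 or 7 had an H3K4me3 peak at the start in each untreated REH library. VPREB1 had none in any library. Of the T cell, myeloid and erythroid, and nonblood markers 3, 4 and 1 had a peak in replicate 1, and 1 of each list in replicates 2 and 3 (BCL11B, EPOR and NEUROG2).

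The widest domains with no protein-coding start in GENCODE 44 were those of BLACE (27000 bp), a noncoding RNA gene named for its expression in B cell leukemia, and of RNA5S13 (20990 bp) and RNA5S4 (18630 bp) in the repeated 5S ribosomal RNA genes on chromosome 1, where reads cannot be assigned to single copies. The RefSeq table places a promoter of the protein-coding gene RHOU in the RNA5S13 domain. NBDY on chromosome X (17720 bp, inside the gene body) and LINC00689 on chromosome 7 (14220 bp) followed. The 10 widest with a protein-coding start were TSPOAP1 (17200 bp), PAX5 (16420 bp), ANKRD13D together with an annotated start of the receptor kinase gene GRK2, whose RefSeq promoter lies in a domain of its own (16280 bp and 8830 bp), DNTT (14310 bp), PRRT2 with MAZ and KIF22 (14080 bp), RCSD1 (13850 bp), PPP1R18 (13500 bp), TRABD (13470 bp), NRN1 (13230 bp) and RAG1 (12740 bp). PAX5, the factor that commits cells to the B lineage, was covered by 16420, 16200 and 15050 bp of peaks in the 3 untreated libraries. DNTT, the polymerase that adds nucleotides at immunoglobulin junctions, had 14310, 13980 and 6020 bp, and RAG1, a subunit of the recombinase, had 12180, 11810 and 6080 bp. The domain of PAX5 was thus near its full width in each library, whereas replicate 3, the shallowest, held less than the other libraries at DNTT and RAG1.

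The same stretches were then read in the other lines. The width given for a domain in another line or treatment is that of the widest region over it called in all 3 libraries. A region of 5000 bp or more called in all 3 untreated libraries lay over 226 of the 432 domains (52.3%) in Raji and 186 (43.1%) in NALM6, and 135 were broad in all the lines. A narrower region lay over 124 domains in Raji and 134 in NALM6, and no region called in all 3 libraries over 82 and 112. Raji had 786 broad regions of its own, of which 228 (29.0%) touched a REH domain, and NALM6 had 275, of which 186 (67.6%) did. Replicate 1 of NALM6 carried another scaling and short peaks, with a median of 917 bp against 2340 and 2070 bp in the other untreated NALM6 H3K4me3 libraries, which bears on every NALM6 width here. Without it 209 domains were broad in NALM6. These shares compare REH, where the domains were chosen for width, with lines where they were not, and they carry no test.

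PAX5 held its width in all the lines, with 16130 bp in Raji and 16250 bp in NALM6 against 16420 bp in REH. BCL11A, a zinc finger factor of early lymphoid cells, had 9340 bp in REH, 9330 bp in Raji and 8890 bp in NALM6. IKZF1, which encodes Ikaros, had 10230, 9820 and 7500 bp in the same order. PAX5 and BCL11A thus kept nearly the same width in the 3 lines, and IKZF1 did so in Raji. EBF1, which acts with PAX5 to specify B cells, had 12440 bp in REH, 8430 bp in Raji and 11060 bp in NALM6, and RUNX1, a partner in the ETV6::RUNX1 fusion that REH carries, had 9350, 2710 and 6520 bp. CD79A, a signaling chain of the B cell receptor, shares its domain with ARHGEF1, and this domain had 8890 bp in REH, 4070 bp in Raji and 3170 bp in NALM6. In Raji and NALM6 this is the widest region only, and the width does not tell which gene's start it covers. The domain over BCL6, the germinal centre repressor, had 7380 bp in REH and 6590 bp in Raji, and in NALM6 no region was called in all 3 libraries, although replicates 2 and 3 had 7400 and 6750 bp of peaks there.

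Of the 10 domains with a precursor B cell gene, 5 had no region called in all 3 Raji libraries. No H3K4me3 peak touched DNTT, RAG1, RAG2, LEF1 or IGLL1 in any of the 6 Raji libraries. IGLL1, a chain of the surrogate light chain of the pre-B cell receptor, had 11060 bp in REH and 10290 bp in NALM6, and LEF1, a lymphoid transcription factor, had 12060 and 5330 bp. DNTT had 14310 bp in REH and 5750 bp in NALM6, and RAG1 12740 and 2380 bp. The domain over RAG2 and IFTAP had 7280 bp in REH. No region there was called in all 3 NALM6 libraries, although a peak touched the domain in untreated replicate 2 or 3. These 5 stretches, with LEF1 from the list of transcription factors, were thus marked in REH and unmarked in Raji. The 5 widest of the 71 domains that no peak touched in any untreated Raji library were BLACE, NBDY, DNTT, LINC00689 and RAG1. Among the precursor B cell genes the domains of BLNK and CD79B were broad in Raji, and 4 domains were in NALM6. In NALM6 replicates 2 and 3, no peak touched 38 domains, of which the widest were NBDY, LINC00689, the cytokine cluster of TNF, LTA and LTB (12430 bp in REH and 12550 bp in Raji), NRXN2 (9120 bp) and ELFN1 (7600 bp).

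In 52 domains no region was called in all 3 libraries of either other line, and 35 of these held a protein-coding start. This does not mean that all were unmarked there. The domains of RAG2, BLACE and TLE1, for example, had a peak in untreated NALM6 replicate 2 or 3. Besides RAG2 they included the ETS factor gene ERG (6810 bp), the cytokine receptor gene IL7R (5240 bp), BCL11B (5940 bp), a T cell factor, and SOX11 (7150 bp), which were picked after their values were seen. ERG had 6650, 6660 and 2720 bp of peaks in untreated REH, 0 in every Raji library, and 0, 2010 and 3820 bp in untreated NALM6. IL7R had 5240, 1750 and 1170 bp in untreated REH, 930, 2000 and 0 bp in Raji, and 0, 3730 and 3090 bp in NALM6. At both genes the mark was thus called in some libraries of another line, whereas SOX11 and BCL11B had no peak in any untreated library of Raji or NALM6. Another 12 domains were broad in NALM6 without a region in Raji, among them DNTT, LEF1, IGLL1 and DUSP6, a phosphatase that turns off ERK.

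**Figure D1:**
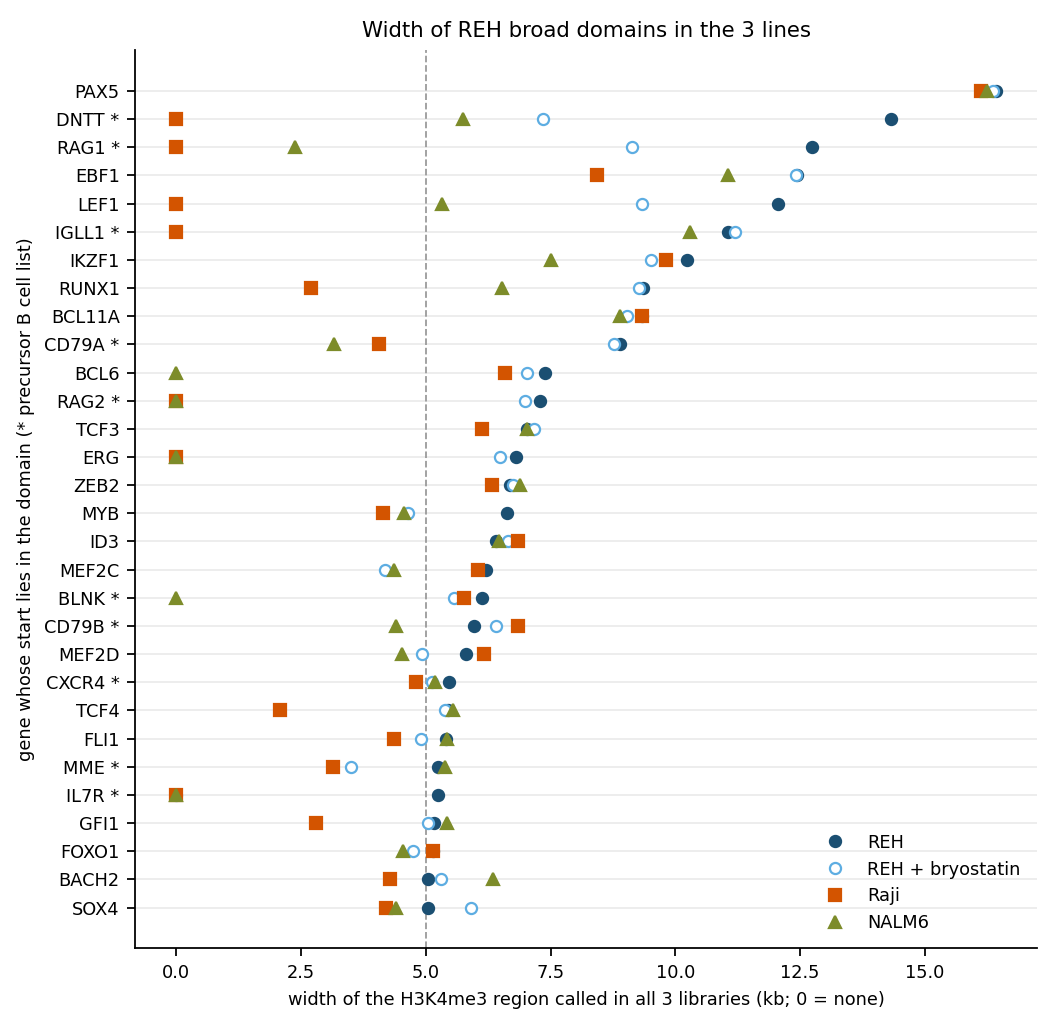
Width in kb of the widest H3K4me3 region called in all 3 libraries over REH domains that hold the start of a listed gene. The genes are B lineage transcription factors and precursor B cell genes (starred). Each line or treatment has 1 point, at 0 where no region was called in all 3 libraries. The dashed line is at 5 kb. PAX5 lay above 16 kb in every group, and DNTT, RAG1, LEF1 and IGLL1 were at 0 in Raji.

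H3K27me3, laid down by Polycomb complexes, was rare in the domains. A peak of this mark was present in all 3 untreated REH libraries in 17 domains (3.94%), against 2.28% of the narrower regions, and 407 domains had none in any of them. The 17 included the developmental regulators ZIC2, TBX2 and BCL11B and the TGF-beta inhibitor SMAD7. At SMAD7 the H3K27me3 peaks covered 5040, 5040 and 4430 bp of its 5040 bp domain in the untreated libraries and 2830, 2670 and 4630 bp in the treated ones. At BCL11B they covered 5350, 4330 and 2410 bp, and 2710, 2470 and 2670 bp after treatment. Both marks were thus called over the same bases in these libraries, and bulk data do not tell whether the same alleles carry both. After bryostatin 13 of the 17 still had a peak in all 3 libraries, and no other domain did. RNA5S4, ACTG1, PLEKHH3 and TNRC18, the rest of the 17, lacked a peak in treated replicate 1 alone. That library had 17131 H3K27me3 peaks, against 43234 and 46491 in treated replicates 2 and 3. The untreated libraries had 48473, 18833 and 17616, and the part of peak number was not tested.

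H3K4me2 of untreated REH and Raji, which played no part in the choice, was compared in the regions called in all 6 libraries. The signal of a region is its summed coverage divided by that of the library's median region, so that 1 is the median region. In bulk libraries a mark on fewer cells and less of the mark per cell cannot be told apart. A region was tested for 348 of the 432 domains, and 193 were higher and 32 lower in REH (limma, adjusted p under 0.05), or 55.5% and 9.20%, where 23% and 23.8% of all 7999 regions tested were higher and lower (46.8% in all). The libraries of the lines did not overlap, with REH above, in 203 domains (27.6% of all regions), and with REH below in 37 (28.4%). The median difference was 0.39 on the log2 scale in the domains and 0.00 over all regions. Since the domains were chosen in REH and REH carries H3K4me2 over all of them, a shift toward REH is the direction the choice favors. The domains of DNTT, RAG1, LEF1 and IGLL1 could not be tested, since no region there was called in every Raji library. The Raji libraries were also shallower, with 6.70 to 13.9 M mapped reads against 13.7 to 18.8 M in REH, and the part of depth was not tested.

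The 3 largest differences were at BAHCC1, a chromatin protein gene, SLC27A3, of the fatty acid transporter family, and KCNN1, a potassium channel gene. The first domain of BAHCC1 had 0.637, 0.459 and 0.689 in Raji and 15.4, 19.5 and 18.0 in REH (log2 difference 4.90 ± 0.15 SE, limma adjusted p = 2.50e-10). SLC27A3 was higher in REH by 3.80 ± 0.14 and the first domain of KCNN1 by 3.66 ± 0.16. At none of the 3 did the libraries of the lines overlap.

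Among the domains of B lineage transcription factors 18 were tested, of which 11 were higher and 4 lower in REH, with a median of 0.33. GFI1, a transcriptional repressor of blood progenitors, had 1.00, 1.12 and 1.17 in Raji and 5.25, 5.67 and 5.74 in REH (2.34 ± 0.11 SE). EBF1 had 1.35, 0.830 and 1.32 in Raji and 3.80, 4.41 and 3.97 in REH (1.83 ± 0.17), and RUNX1 was higher by 1.50 ± 0.12. The libraries of the lines were apart at each of these. PAX5 did not differ beyond its spread, with 11.5, 11.7 and 11.2 in Raji and 10.3, 12.7 and 11.7 in REH (0.01 ± 0.11, limma adjusted p = 0.96). BCL11A did not pass the test either (0.11 ± 0.10, limma adjusted p = 0.39), although its libraries did not overlap between the lines. The 4 that were lower in REH were IKZF1 (-0.57 ± 0.10), FOXO1 (-0.65 ± 0.11), MYB (-0.63 ± 0.12) and BACH2 (-0.60 ± 0.11), factors that B cells use at several stages. These 4 calls were lost without centring of the libraries, which moved the median of all regions by 0.25 toward REH and left 208 domains higher and 8 lower. Among chromatin regulators 6 of 16 domains were higher in REH and 4 lower, the latter with the methyltransferase gene KMT2B (-1.17 ± 0.11), and among immediate early genes 7 of 9 were higher and none was lower. No precursor B cell domain passed the test among the 5 that could be tested, with differences from 0.08 to 0.28.

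**Figure D2:**
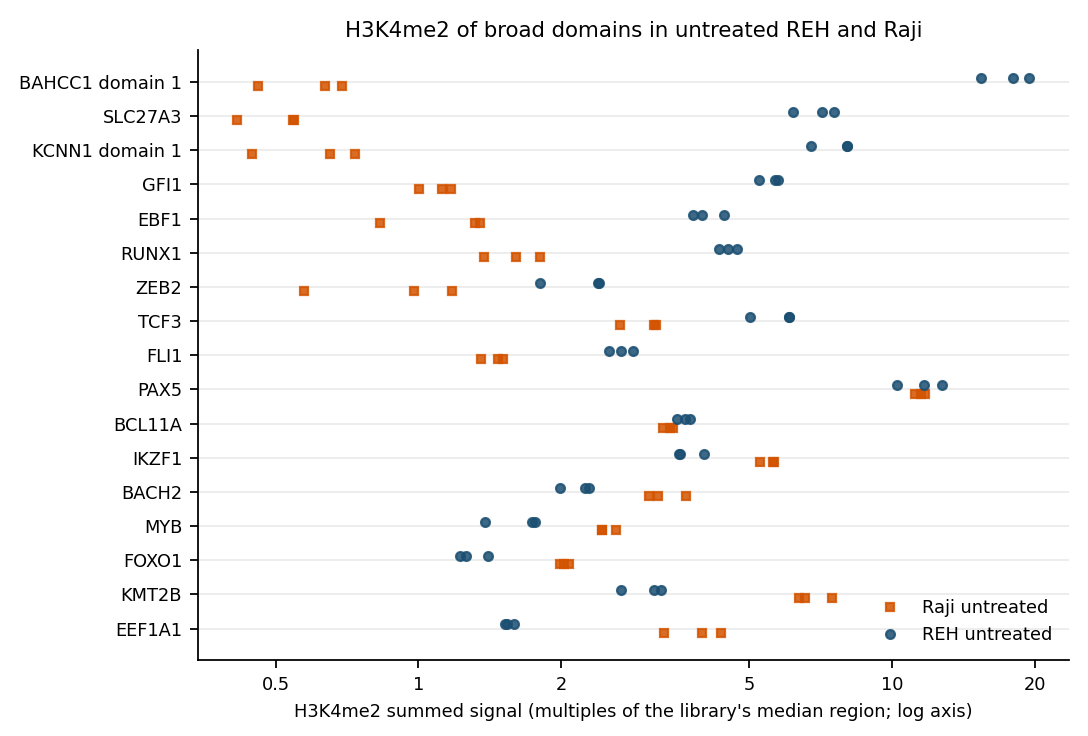
H3K4me2 signal of 17 domains in the 3 untreated libraries of REH (circles) and Raji (squares), in multiples of the library's median region on a log axis. The REH libraries lay above the Raji ones from BAHCC1 down to FLI1 and at BCL11A, overlapped with them at PAX5, and lay below them from IKZF1 down to EEF1A1, a translation elongation factor gene (-1.31 ± 0.12).

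Bryostatin was given to each line, and the first question is whether the REH domains kept their width. A region of 5000 bp or more called in all 3 treated libraries lay over 317 of the 432 domains (73.4%), a narrower one over 101 and none over 14. The set was chosen in the untreated libraries, so a lower count in any other 3 libraries is built into the choice, and no test was made. The widest region over the domain was narrower or absent after treatment for 298 domains and wider for 132. SPRY2, an inhibitor of receptor tyrosine kinase signaling, went from 5220 to 7270 bp, DUSP6 from 7560 to 9510 bp and the AP-1 gene FOSL2 from 5000 to 6630 bp. At DNTT the domain of 14310 bp had a widest region of 7340 bp after treatment. These 4 were picked after their values were seen. At SPRY2 the treated libraries had 6780, 7010 and 7270 bp of peaks against 5200, 5210 and 3520 bp untreated, with no overlap. At DNTT they had 10470, 11070 and 9160 bp against 14310, 13980 and 6020 bp, so there the groups overlapped. Each treated length at DNTT was above 7340 bp, so peaks there also lay outside the widest region.

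The summed H3K4me3 signal could be set side by side in 418 domains. In limma 8 were higher and 26 lower after bryostatin, 1.91% and 6.22%, where 0.815% and 0.857% of all 7238 regions were called (1.67% together). A fit that took the replicate number as a block gave 12 higher and 47 lower (1.23% and 1.56% of all regions, 2.79% together). The groups did not overlap in 24 domains with treated higher (8.41% of all regions) and 93 with treated lower (9.15%). As the untreated libraries chose the domains, a shift downward is favored by the choice, and nothing is read from these shares. The changes of single domains are given for description. The precursor B cell genes IGLL1, DNTT, CD79B and MME were among the 26 lower domains. IGLL1 had 4.51, 4.73 and 5.82 untreated and 2.67, 3.21 and 3.17 treated (log2 change -0.73 ± 0.10 SE), with no overlap. DNTT had 2.63, 2.70 and 2.28 untreated and 1.62, 1.80 and 1.56 treated (-0.61 ± 0.08). The domain of CD79B, the partner of CD79A, changed by -0.38 ± 0.08 and that of MME, which encodes the surface antigen CD10, by -0.33 ± 0.06. Of the 9 precursor B cell domains with a value 4 were called lower and none higher, and of the 20 of B lineage transcription factors none was called, with a range from -0.30 to 0.45. These counts rest on the libraries that chose the domains and on lists chosen with earlier results known, so nothing is read from them. PAX5 had 12.3, 12.8 and 14.5 untreated and 10.7, 12.9 and 12.7 treated.

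The largest changes in either direction were at FHOD1, a formin gene (0.93 ± 0.08), at the second domain of CBFA2T3, a corepressor gene (-0.90 ± 0.14), and at SH3TC1 (-0.85 ± 0.07). FHOD1 had 1.02, 1.16 and 0.963 untreated and 1.93, 2.12 and 1.93 treated. SH3TC1 had 2.72, 3.0 and 3.04 untreated and 1.59, 1.69 and 1.56 treated, and the groups were apart at both. Of the 11 immediate early and feedback domains 2 were called higher and none lower, where 0.815% and 0.857% of all regions were. The untreated libraries chose the domains here too, so nothing is read from this count. ZFP36L1, which encodes an mRNA decay factor, had 2.53, 2.44 and 1.94 untreated and 3.52, 3.80 and 3.84 treated (0.70 ± 0.09), and SPRY2 changed by 0.48 ± 0.07. With the called length or the mean signal per base in place of the sum none of the 418 passed, and the maximum gave 6. Leaving out 1 library gave from 17 to 51 calls. The calls of MME and CD79B were lost without untreated replicate 2 and without any 1 of the treated libraries.

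H3K4me2 in REH was not used to choose the domains, and its libraries were tested for the same treatment. No domain of 429 tested passed limma's adjusted p of 0.05 in either direction, where 1.42% of all 10791 regions were higher and 0.0371% lower (1.45% together), and 41 domains and 1066 regions had an unadjusted p under 0.05. The median change was -0.08 in the domains and -0.02 over all regions, and 14 domains were higher and 40 lower with no overlap of the groups (3.26% and 9.32%, against 7.01% and 7.7% of all regions). IGLL1 had 7.47, 9.08 and 8.49 untreated and 7.43, 7.72 and 7.56 treated (-0.14 ± 0.10), and DNTT changed by -0.11 ± 0.10 (adjusted p = 0.76), so the groups overlapped at both. Under the block 5 domains passed, 1 higher and 4 lower, against 2.47% and 0.361% of all regions (2.83% together). PAN3, a deadenylase subunit gene, was higher (0.44 ± 0.12). ZFP36L1, B3GNT2, IER5L and the BCL6 domain were lower, by -0.38 ± 0.09, -0.34 ± 0.09, -0.30 ± 0.09 and -0.43 ± 0.15. The SE given for PAN3 and for these domains is that of the fit with no block. ZFP36L1 had H3K4me2 of 4.61, 4.92 and 5.08 untreated and 3.48, 3.78 and 3.96 treated, so at this gene H3K4me2 was lower in every treated library while H3K4me3 was higher. Without untreated replicate 1, 9 domains were called lower in the fit with no block.

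**Figure D3:**
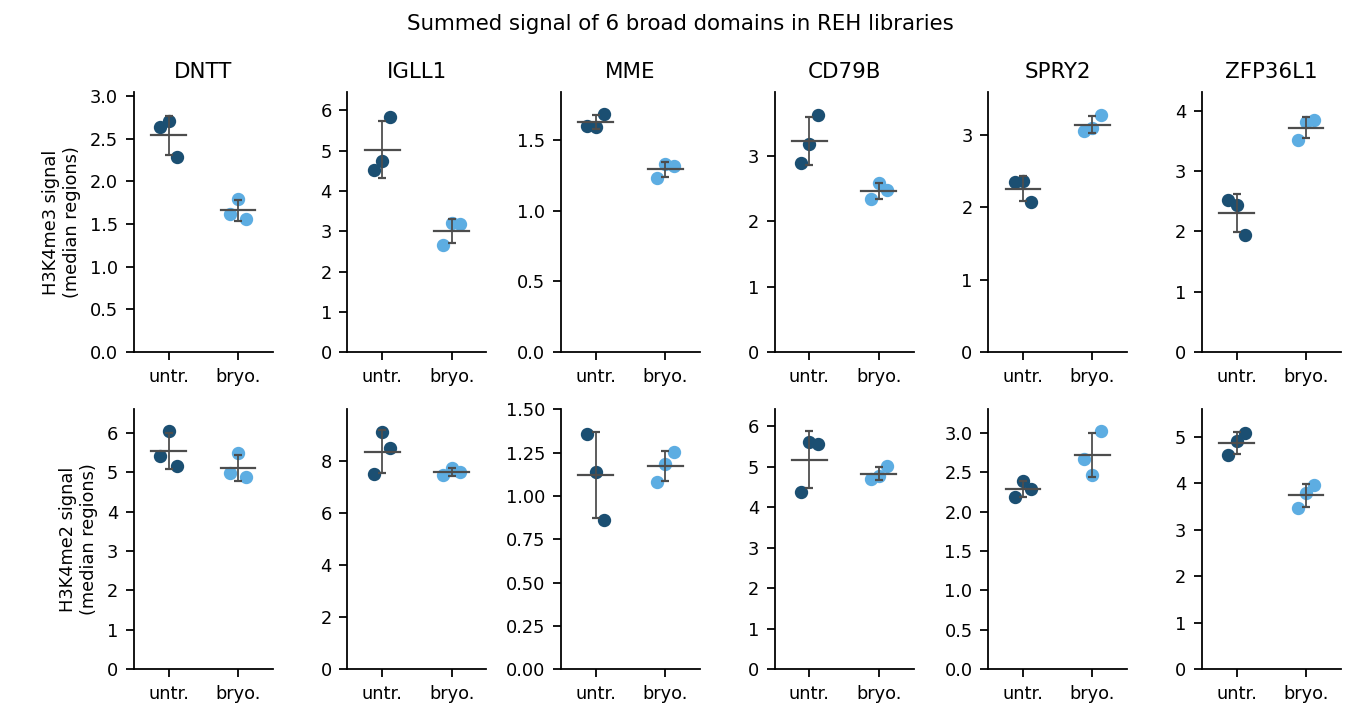
Summed H3K4me3 (upper row) and H3K4me2 (lower row) signal of 6 domains in REH libraries, untreated (dark) or with bryostatin (light), in multiples of the library's median region; points are libraries, and bars give the mean and SD of 3. H3K4me3 groups were apart at all 6 genes, whereas H3K4me2 groups were apart at SPRY2 and ZFP36L1 and overlapped at DNTT, IGLL1, MME and CD79B.

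In Raji a value for H3K4me3 was available for 342 of the REH domains. One of them, UBASH3B, which encodes a tyrosine phosphatase, passed limma's test, and it was higher after bryostatin, against 0.155% of all 9031 regions higher and 0% lower. UBASH3B had 0.491, 0.571 and 0.547 untreated and 1.18, 0.888 and 1.10 treated (0.97 ± 0.14, adjusted p = 0.028), but its call was lost without untreated replicate 1 or 3 or any 1 of the treated libraries (adjusted p from 0.078 to 0.19). Under the block 13 domains passed, 10 higher and 3 lower, against 1.1% and 0.399% of all regions (1.49% together). In 37 domains the treated libraries lay above the untreated ones without overlap and in 14 below, where the shares of all regions were 5.78% and 6.6%. At an unadjusted p under 0.05 there were 34 domains and 510 regions in the fit with no block. Besides UBASH3B the higher ones were ZFP36L1 (0.44 ± 0.09 with no block), SMAD7, FHOD1, LAPTM5, the domain of ZFP36 and PLEKHG2, the TNF cluster, ACTB, MYADM and PBX2. The lower ones were the domain of ZNF70 (-0.59 ± 0.10 with no block), NTN3 and IKZF1. At MYADM, PBX2 and IKZF1 the groups overlapped. The domain of ZNF70 also holds the start of VPREB3, a gene of the pre-B cell receptor assembly, and had 2.44, 2.37 and 2.54 untreated and 1.45, 1.68 and 1.78 treated in Raji. In REH the H3K4me3 signal of that domain was 2.84, 2.95 and 3.36 untreated and 1.74, 1.80 and 1.58 treated, so the treated libraries were the lower in both lines.

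In NALM6, 275 domains could be tested and none passed, nor did any of the 3838 regions (limma, 0% in each direction), with or without the block. At an unadjusted p under 0.05 there were 2 domains and 7 regions, and without replicate 1 there were 24 and 94. The SE of a change was larger there, with a median of 0.26 over the domains against 0.08 for H3K4me3 in REH and 0.11 in Raji. IGLL1 had 1.17, 3.44 and 3.38 untreated and 1.23, 2.53 and 2.79 treated, so replicate 1 stood apart in both groups and the change of -0.22 ± 0.49 could not be told from 0. DUSP6 had 2.14, 2.13 and 1.99 untreated and 2.84, 2.51 and 2.81 treated, which did not overlap but had a limma adjusted p of 1.00. Such separation was seen in 12 domains with treated higher and 7 with treated lower, against 2.92% and 2.19% of all regions.

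The response of H3K4me2 to bryostatin was compared between REH and Raji with an interaction term in 349 domains. None of these passed limma's adjusted p of 0.05, against 0.0275% of all 7267 regions, and 15 domains and 479 regions had an unadjusted p under 0.05. The domain with the lowest p was HPS4 (-0.74 ± 0.18, adjusted p = 0.33). A response of the domains that differed between the lines was not detected at this number of libraries.

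**Figure D4:**
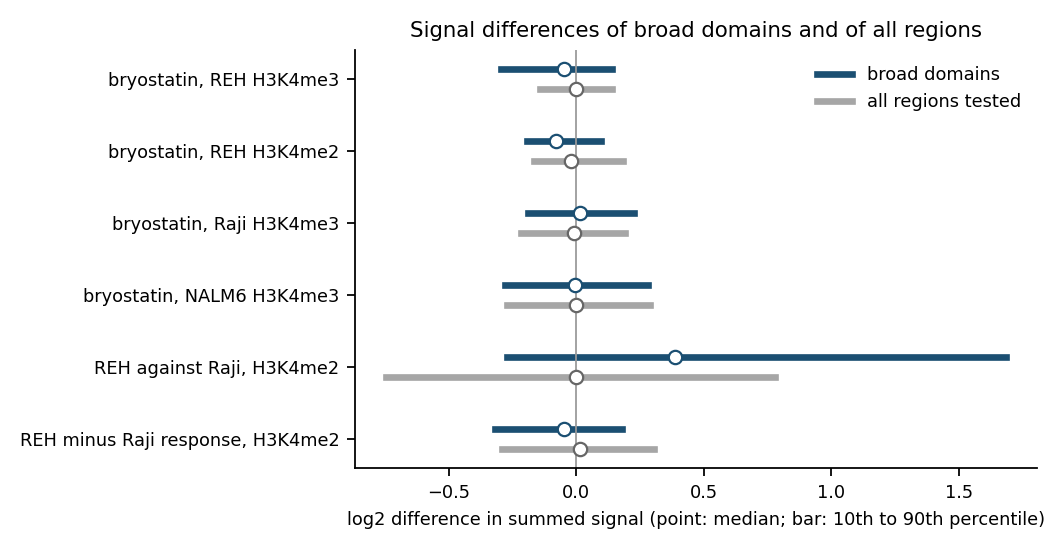
Median (point) and 10th to 90th percentile (bar) of the log2 difference in summed signal, in the REH domains (dark) and in all regions tested (grey), for each comparison; the bryostatin rows are treated minus untreated and the last row is the response of REH minus that of Raji. The median of the domains was 0.39 for H3K4me2 in REH against Raji and lay between -0.08 and 0.02 in the bryostatin rows.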

How the data were processed

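Per the labels and the methods of the study, the authors trimmed the reads with Trim Galore, aligned them to hg38 with Bowtie2, computed coverage and called peaks in each library with SEACR (stringent). No version is given in the sources used here. The deposited signal of a peak is the sum or maximum of RPKM coverage, which the authors computed in bins of 10 bp, except in replicate 1 of NALM6, whose scaling is not stated. Of 54 peak files 42 were used. The H3K27me3 files of Raji and NALM6 and the IgG libraries were not used here. The study's labels name H3K27me3 and its design text H3K27me2, and the former is used.

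Mapped reads were taken from the step between RPKM values, which is the worth of 1 read. Peaks of the libraries of a comparison were merged at 1 bp of overlap. The log2 of the summed signal was centred on the median region, and regions called in every library were fitted with limma 3.58.1 (R 4.3.3, eBayes with trend) with Benjamini-Hochberg adjustment over all regions. Domains that fell in the same merged region share its value. Tables were made with pandas 2.3.3 (Python 3.11.15), and genes are from GENCODE 44. The main fits took no account of the replicate number. A fit with that number as a block was run beside them for bryostatin, since libraries with one number deviated alike from their group means. The correlations of these deviations were 0.18 to 0.31 (REH H3K4me3), 0.13 to 0.21 (REH H3K4me2), 0.48 to 0.54 (Raji H3K4me3) and 0.63 to 0.68 (NALM6 H3K4me3). In NALM6, replicates 2 and 3 were also correlated across numbers, at 0.51 and 0.57, so there the values do not single out pairs. The block was given where it changed a call or a count. Alternatives were the maximum, the mean, the called length, no centring, quantile normalization, the upper 0.5 of regions, eBayes with no trend, the block, and each library left out. The domains and gene lists were chosen with earlier results of these data known. Named are the 10 widest with a protein-coding start, the 12 widest of the B lineage and precursor lists and the 2 widest of each other list, the 3 largest changes past the test per comparison, 3 on each side of 5000 bp, and the 5 widest without a peak in Raji or NALM6. Others were picked after their values were seen.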

Additional observations from a re-analysis of the deposited data

Results flagged for a closer look

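In 11 domains every bryostatin library of one line lay on one side of its untreated libraries for H3K4me3, and every library of another line on the opposite side. None of these differences was tested, and the REH libraries are those that chose the domains. In both REH and Raji, 5 of 339 domains (1.47%) and 32 of 6499 regions (0.492%) showed this. In REH and NALM6 it was 5 of 275 domains (1.82%) and 17 of 3717 regions (0.457%), and in Raji and NALM6 1 of 252 domains (0.397%) and 15 of 3579 regions (0.419%). The value given is the difference of the log2 changes.

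Between REH and Raji the largest was at the TNF, LTA and LTB cluster (-0.81, with -0.44 in REH and 0.37 in Raji). TPM4 followed with -0.46 (-0.18 and 0.29), ENSG00000283782 with -0.44 (-0.13 and 0.32), IRX5 with 0.35 (0.18 and -0.17) and IRF1, an interferon response factor, with -0.31 (-0.14 and 0.17). Between REH and NALM6, DUSP1, a phosphatase of MAP kinases, had -0.72 (-0.23 in REH and 0.49 in NALM6), FOSL2 had 0.69 (0.19 and -0.50) and KAZALD1 had -0.66 (-0.26 and 0.40). RASGRP2 had -0.52 (-0.26 and 0.26) and ALKBH5 had -0.31 (-0.15 and 0.16). Between Raji and NALM6, SMAD7 had 0.72 (0.34 in Raji and -0.38 in NALM6).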

How the results depend on the processing

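The 432 domains became 1050 at 4000 bp, 31 at 10000 bp, 103 with 5000 bp called in every library and 264 to 433 with 1 library left out (264 without replicate 1, the deepest). For bryostatin and REH H3K4me3 (34 calls) the maximum gave 6, the mean 0, the called length 0, no centring 20, quantile normalization 52, the replicate block 59, and leaving out 1 library 17 to 51. For REH H3K4me2 (0 calls) the maximum gave 1, no centring 1, quantile normalization 3, the upper 0.5 of regions 1, the replicate block 5, and leaving out 1 library 0 to 9. For Raji H3K4me3 (1 call) the maximum, the mean, the called length, no centring, the upper 0.5 of regions and eBayes with no trend gave 0, the replicate block 13, and leaving out 1 library 0 to 1. For REH against Raji (225 calls) the mean gave 145 and the called length 67. The lines there share only the replicate number, and the block gave 233 calls. The block changed no count for NALM6 or the interaction, which stayed at 0. Named values changed sign at FHOD1 with the called length (-0.026), SPRY2 and ANKRD13D with the mean (-0.070 and 0.37), FOXO1 and BACH2 with the called length (0.13 and 0.15), MYB with the maximum and the called length (0.37 and 0.019) and KMT2B with the mean (0.016). The causes were not tested. Of 168 leave-out values of named domains 18 lost their call, and of 223 under the other alternatives 52 lost it and 8 changed sign. Depth and called width moved together over the untreated REH libraries, and the part of depth was not tested. NALM6 values include replicate 1 with its short peaks unless stated.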
